A study of Mus musculus with 26 samples.

Results

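Genes of the cell cycle and of DNA replication were followed in the lacrimal gland, the source of the watery layer of tears. The list held 41 named genes, of 18194 genes that had a probe set naming a single gene on the arrays. A gene was represented by the probe set that named only that gene and had the highest mean over all 26 arrays. This gave 40 genes with a value, since Ccnb1 had no such probe set in the annotation used here. Of these, 37 passed a filter on dim signals and were tested, and Plk1, Aurka and Melk did not pass it.

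The glands came from male C57BL/6.NOD-Aec1Aec2 mice, C57BL/6 animals that carry NOD-derived segments of chromosomes 1 (Idd5) and 3 (Idd3) and develop a disease like Sjögren's syndrome, in which tear and salivary glands are attacked by the immune system. In the study's description, 4 weeks (n = 4 arrays) precedes disease and 8 weeks (n = 6) is an early stage without clinical signs. The 12 week stage (n = 6) is that of the first leukocytes in the gland, the 16 week stage (n = 5) that of early clinical autoimmunity, and the 20 week stage (n = 5) that of failing secretion. All groups share both segments, and without a control strain in this work the effects of age and of disease cannot be told apart. Of the genes described, Ccna2 lies on chromosome 3, and Mcm3 and Mcm6 are the 2 that lie on chromosome 1. Whether they lie inside the NOD-derived segments was not tested. The labels call the replicates biological, and the sources used here do not say whether an array holds the RNA of 1 animal or of several. The p-values therefore reflect how much these arrays differ within an age. In whole glands, fewer cells of a type and less RNA per cell cannot be told apart.

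A dividing cell first licenses its replication origins: Cdt1 and Cdc6 load the ring of Mcm2 to Mcm7 proteins, the helicase that opens DNA, and geminin, the product of Gmnn, blocks Cdt1 once replication has begun. Pcna then clamps the polymerase to DNA while ribonucleotide reductase and thymidine kinase supply nucleotides, and Cdk1 with its cyclins drives the cell into mitosis, which Cdc20 ends by activating the anaphase-promoting complex. Genes of the replication step are classic targets of E2F factors. Genes of mitosis are known for a promoter element with the letters TTTGAA, the cell cycle genes homology region, which works with CCAAT boxes. Secretory cells of an adult gland divide seldom, whereas activated lymphocytes and plasma cell precursors divide fast.

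The promoters of the list carried these letters to an unequal extent, and 5 stretches are shown to let the elements be read in place. Cdc20, Mki67 and Cdk1, of mitosis, and Cdt1, of replication, are among the genes that fell between 16 and 12 weeks. Mcm6, of replication, did not pass there on the probe set used and is shown for its run of E2F letters. The letters are from RefSeq, build GRCm38.p6, 5′ to 3′ on the strand of the gene. Capitals mark the homology region (TTTGAA) on either strand. They also mark each CCAAT box, which reads ATTGG where it lies on the other strand. Last, they mark 4 spellings known as E2F sites, either strand: TTTCCCGC, TTTGGCGC, TTTCGCGC and TTTGCCGC. The Cdc20 stretch is chr4:118437344-118437443 (minus strand), the 100 bases before the start of the gene. The Mki67 stretch is chr7:135716451-135716579 (minus), which lies between 200 and 72 bases before the start. The Cdk1 stretch is chr10:69352913-69353062 (minus), the 150 bases before the start, and the Mcm6 stretch is chr1:128359706-128359835 (minus), the 130 bases before the start. The Cdt1 stretch is chr8:122568035-122568064 (plus), 30 bases just after the start.
Cdc20: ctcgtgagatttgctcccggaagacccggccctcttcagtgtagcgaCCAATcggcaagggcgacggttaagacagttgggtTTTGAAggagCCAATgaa
Mki67: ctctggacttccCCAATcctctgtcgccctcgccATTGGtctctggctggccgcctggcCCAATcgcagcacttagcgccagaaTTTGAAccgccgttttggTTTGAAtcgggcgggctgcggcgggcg
Cdk1: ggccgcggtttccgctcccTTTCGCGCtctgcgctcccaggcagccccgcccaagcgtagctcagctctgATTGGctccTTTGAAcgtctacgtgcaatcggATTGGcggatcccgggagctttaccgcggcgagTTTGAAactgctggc
Mcm6: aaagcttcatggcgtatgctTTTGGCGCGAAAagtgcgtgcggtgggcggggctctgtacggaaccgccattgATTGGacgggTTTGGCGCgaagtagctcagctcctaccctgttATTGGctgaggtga
Cdt1: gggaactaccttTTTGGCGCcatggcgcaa

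In Cdc20 the TTTGAA letters began 18 bases before the start, with CCAAT boxes 53 and 8 bases before it. Mki67 held TTTGAA at 116 and 98 bases, and Cdk1 at 71 and 15 bases before the start. Mcm6 held E2F letters at 110, 106 and 47 bases before its start, the first pair overlapping on opposite strands in the long run of capitals, and no TTTGAA. Windows of 250 bases before to 50 bases after the start were searched on both strands for 34 of the 41 genes, in 36 windows. TTTGAA was in 16 of 22 windows of the mitosis genes (72.7%) and in 1 of 14 windows of the replication, nucleotide and E2f1 genes (7.14%), the one being Mcm2, against 17.9% of all 32851 windows. CCAAT was in 86.4% of the mitosis windows and in 64.3% of the replication windows, against 37.4% of all. The E2F letters were in 4.55% of the mitosis windows and in 42.9% of the replication windows, against 2.26% of all. Tk1 held none of the 3 in its window. A match is a run of letters and not a shown site, and the 4 E2F spellings are a part of those that E2F factors are known to accept.

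All expression values are log2 values as deposited, and differences are later minus earlier age. A mean under 4.04, within 1 log2 unit of the typical array median, is called near background, and a difference that runs into it may be understated. Of the 40 genes, 18 had a mean over all arrays above this line. Among these 18, 15 had their highest age mean at 12 weeks, 2 at 16 weeks and 1 at 20 weeks. Among all 40 measured, 25 had it at 12 weeks. The mean behind the line includes the 12 week arrays, so a gene can pass it through that age. The share of all genes with their highest mean at 12 weeks was not counted, so these counts only describe the list.

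Array quality differed in ways that touch the results. Log2 values had an SD of 1.68 on replicate 4 of 16 weeks and of 1.36 on replicate 1 of 20 weeks, against 1.78 to 2.27 on the other 24 arrays. The median correlation with arrays of the same age was 0.921 and 0.869 for these, against 0.956 to 0.986 for the others. Replicate 4 of 12 weeks stood apart in lymphoid genes, with a mean of 9 B cell markers of 4.08 against 2.54 to 2.93 on the other 25 arrays. The 3′ minus 5′ value of the actin controls, a measure of RNA integrity, was 3.12 to 5.71 at 16 weeks and 3.26 to 4.66 at 12 weeks. Of 7 acinar markers of the gland, 6 had an age mean above the near background line, and Chrm3 did not. The mean of the 7 averaged 9.22 ± 0.93 (SD, n = 5) at 16 weeks and 9.77 ± 0.21 (n = 6) at 12 weeks. On replicate 4 of 16 weeks it was 7.6, with Aqp5 at 4.90 and Bhlha15 at 6.08, against 9.54 to 9.78 on the other 16 week arrays. A set of 6 salivary gland markers lay between 4.31 and 11.2 over all arrays.

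**Figure D1:**
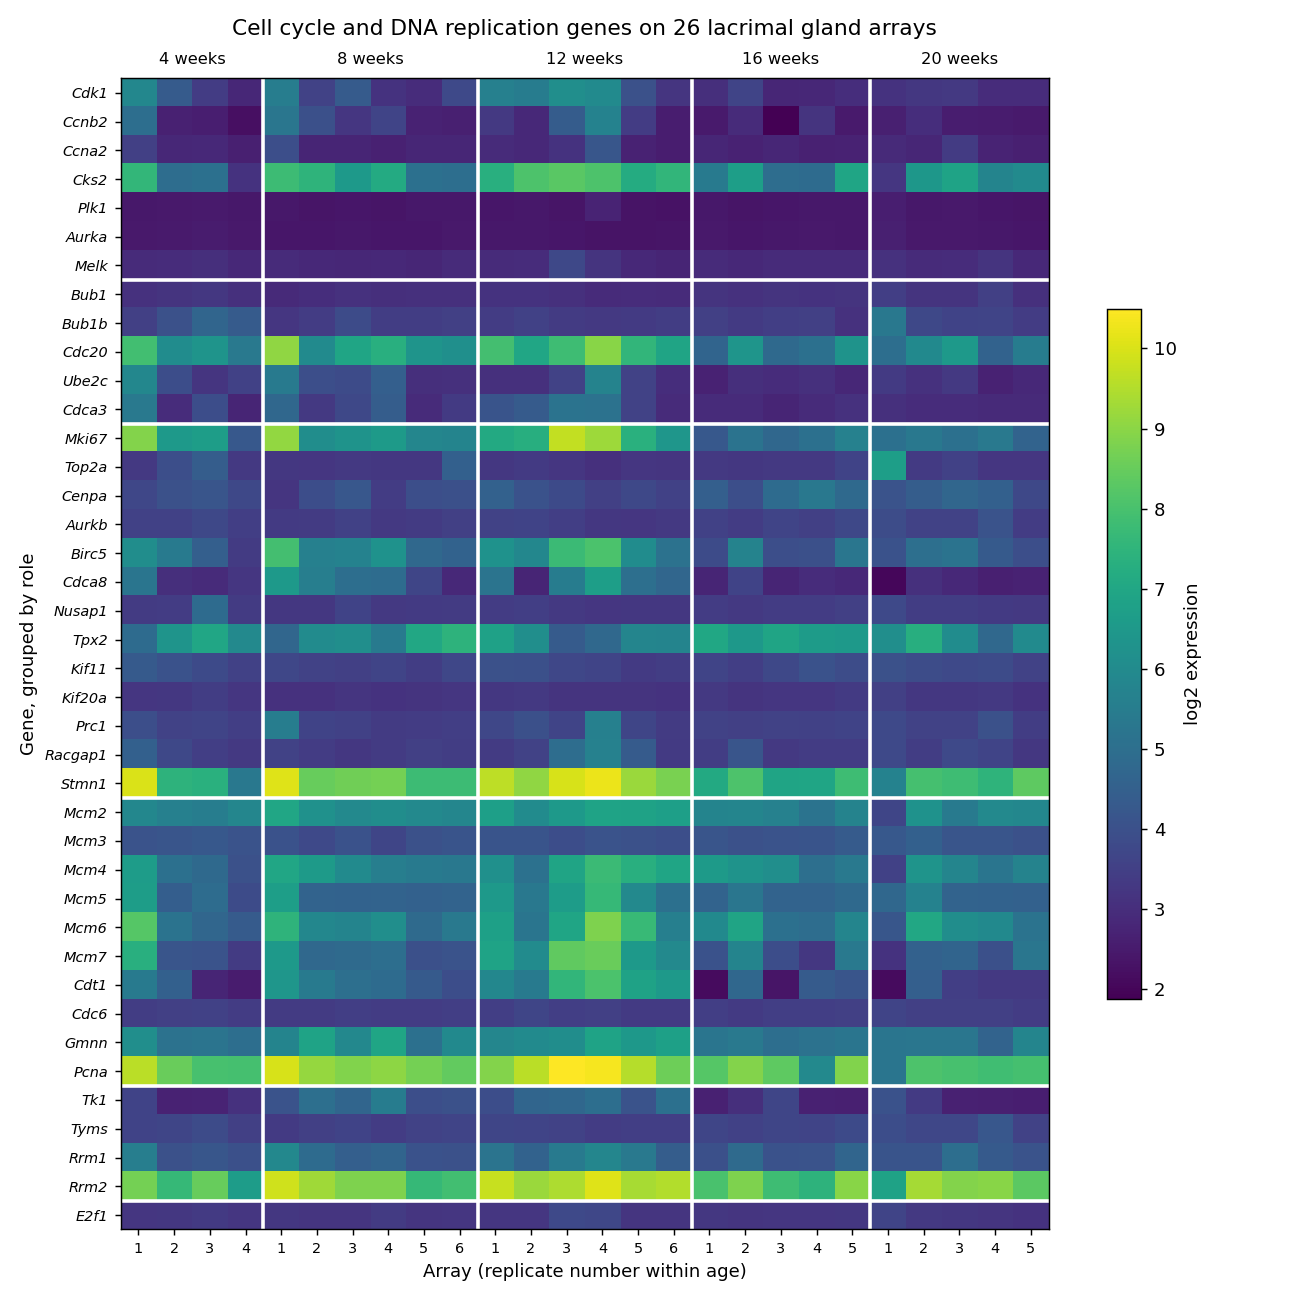
Log2 expression of 40 cell cycle and DNA replication genes (rows, grouped by role) on 26 arrays (columns, by age in weeks and replicate). Replicates 3 and 4 of 12 weeks are bright for Stmn1, Pcna and Mki67, and the 16 and 20 week columns are darker in these rows.

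Over the 5 ages, 12 of the 37 tested genes changed (32.4%), against 14.9% of all 12377 genes tested (limma F test, adjusted p under 0.05, as for all calls below). The 12 are Cdk1, Cdc20, Mki67, Cenpa, Cdca8, Stmn1, Mcm2, Mcm7, Cdt1, Gmnn, Pcna and Tk1, and 11 of them had their highest mean at 12 weeks. Cenpa, the histone variant of the centromere, had it at 16 weeks. Tk1 (adjusted p = 0.000984) and Cdt1 (0.00299) had the lowest adjusted p-values by limma, and Pcna (0.0457) and Mcm2 (0.0453) were the closest to the threshold. The count was 6 without replicate 3 or replicate 4 of 12 weeks, against 11.7% and 11.6% of all genes. It was 7 without replicate 2 of 4 weeks, replicate 4 of 8 weeks, or replicate 1 or 3 of 16 weeks. There the all-gene share was 11.2% to 12.2%. With array spread as a covariate, a setting chosen after seeing the data, the count was 2, against 15.3% of all genes. Tk1, Cdt1, Cdc20, Mki67, Cdca8 and Gmnn kept this call in all 26 refits that left out 1 array.

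The main step lay between 16 and 12 weeks. All 7 genes that passed the test there fell: Cdt1, Tk1, Mki67, Cdc20, Gmnn, Mcm7 and Cdk1. The 7 genes make 18.9% of the 37 tested, against 2.98% of all genes in either direction and 2.63% lower at 16 weeks. A further 14 had an unadjusted p under 0.05, 12 lower and 2 higher (Cenpa and Tpx2) at 16 weeks. This gives 21 of 37 (56.8%), against 20.9% of all genes tested. The median difference of the 40 measured genes was -0.779, against 0.044 over all 18194 genes, and 29 of the 40 were below 0. The members were picked with earlier results of these data known, so these counts describe the list and are no independent test of it.

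**Figure D2:**
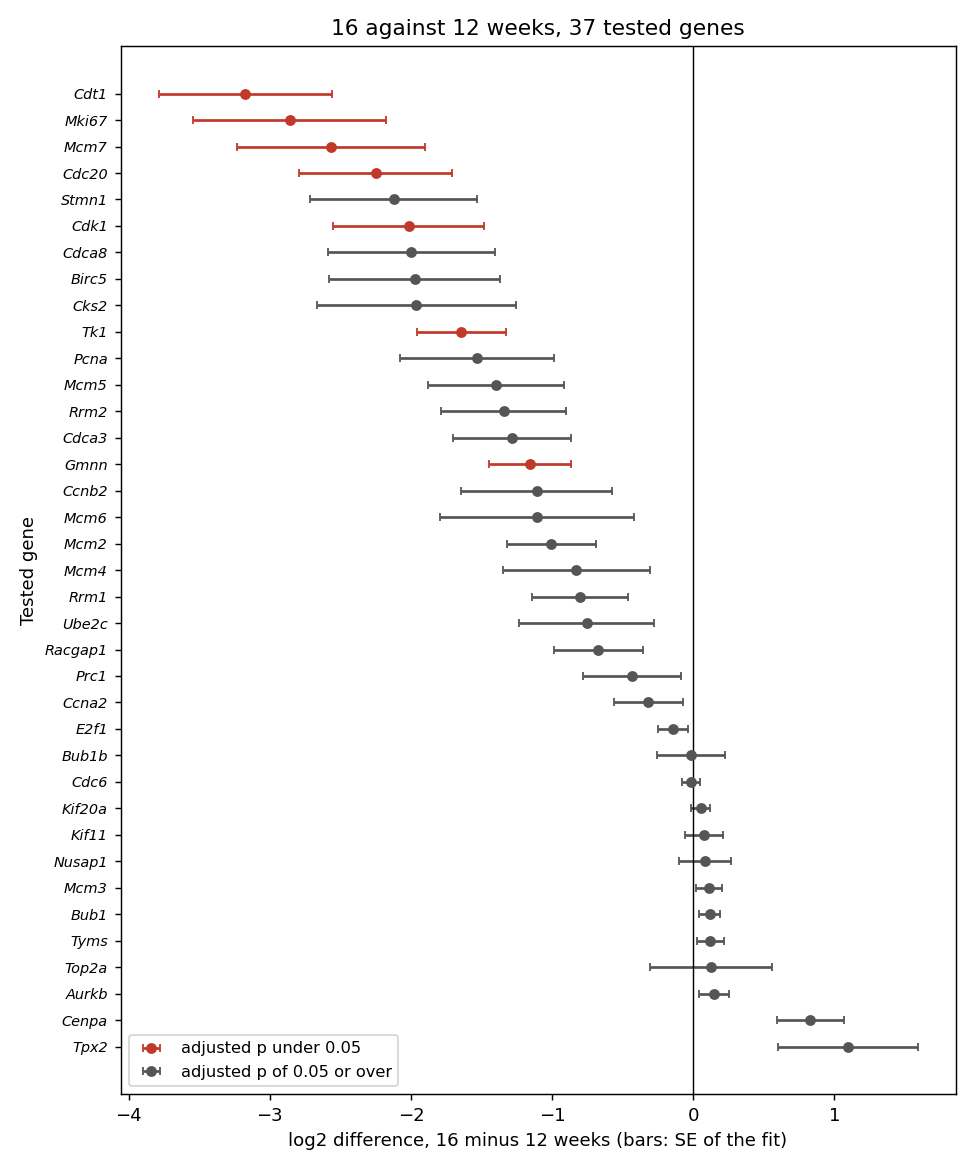
Log2 difference, 16 minus 12 weeks, of the 37 tested genes (points) with the SE of the fit (bars), in order of size. The 7 red genes passed an adjusted p of 0.05 and lie between -3.17 (Cdt1) and -1.16 (Gmnn), and the 2 grey genes furthest to the right are Tpx2 (1.10) and Cenpa (0.83).

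Cdt1, the licensing factor, was measured at 2.12, 4.74, 2.35, 4.34 and 4.15 on the 16 week arrays, against 5.42 to 8.05 with a median of 6.69 on the 12 week arrays. Every 16 week array lay below every 12 week array, and replicates 1 and 3 of 16 weeks lay under the array medians. Cdt1 fell by 3.17 ± 0.62 (SE) at 16 weeks (limma adjusted p = 0.0121), to a near background mean. Averaged over its 3 probe sets, of which the other 2 had age means of at most 3.22, Cdt1 fell by 1.11 (adjusted p = 0.0133 by limma). At 20 weeks Cdt1 was at 2.14, 4.47, 3.47, 3.29 and 3.29, in the range of the 16 week arrays.

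Gmnn, the inhibitor of Cdt1, was at 5.22, 5.36, 4.99, 5.13 and 5.22 at 16 weeks, against 5.82 to 6.86 with a median of 6.29 at 12 weeks. The ages did not overlap, and the 16 week arrays were close together (SD 0.14, n = 5). Gmnn fell by 1.16 ± 0.29 (adjusted p = 0.0357, limma). Licensing factor and inhibitor were thus both lower at 16 weeks.

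Among the helicase genes, Mcm7 was at 4.03, 5.77, 3.92, 3.27 and 5.37 at 16 weeks, against 5.93 to 8.53 with a median of 6.68 at 12 weeks. Replicates 3 and 4 of 12 weeks were the highest, and no 16 week array reached the lowest 12 week array. Mcm7 fell by 2.57 ± 0.66 (adjusted p = 0.0416, limma). This call was lost in 11 of 26 refits without 1 array, among them those without replicate 3 or 4 of 12 weeks, with a highest limma adjusted p of 0.112 without replicate 4. All 3 of the other Mcm7 probe sets were also lower at 16 weeks, by 0.70 to 0.98. Read without any _x_at or _s_at set, Mcm7 gave -0.82 and did not pass (adjusted p = 0.189, limma).

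Mcm2 did not pass in this comparison (-1.01, adjusted p = 0.0758 by limma), although its 5.14 to 5.81 at 16 weeks lay below its 6.02 to 6.87 at 12 weeks. Its probe set has a name ending in _s_at. The other Mcm2 probe set, with means of 4.30 at 16 weeks and 6.42 at 12 weeks, gave -2.11 and passed when read in its place (adjusted p = 0.00278, limma). Mcm5 (-1.40), Mcm6 (-1.11) and Mcm4 (-0.83) had negative differences, with adjusted p-values of 0.103, 0.348 and 0.351 by limma, and their arrays overlapped between ages. All 3 were read from probe sets with names ending in _x_at. With these left out, Mcm6 had means of 4.52 at 16 weeks and 6.88 at 12 weeks and fell by 2.36 (adjusted p = 0.0147, limma). Mcm4 likewise had means of 3.94 at 16 weeks and 5.13 at 12 weeks and fell by 1.19 (adjusted p = 0.0405, limma), while Mcm5 gave -1.20 and did not pass (0.0647, limma). Whether Mcm4, Mcm6 and Mcm2 were called thus depended on the probe set read. Mcm3, the remaining helicase gene, gave 0.11 on the probe set used (mean 4.14 at 16 weeks, 4.03 at 12 weeks). Another Mcm3 probe set, which was dimmer over all arrays, had means of 3.21 at 16 weeks and 4.87 at 12 weeks. Cdc6, which loads the ring with Cdt1, stayed near background at every age, between 3.41 and 3.51 in age means.

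Pcna, the sliding clamp, was at 8.21, 8.90, 8.36, 5.94 and 8.86 at 16 weeks, against 8.59 to 10.5 with a median of 9.57 at 12 weeks. The ages overlapped, and replicate 4 of 16 weeks, an array with a narrow spread, was far below the rest. The difference of -1.53 ± 0.55 did not pass (adjusted p = 0.115, limma).

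Of the enzymes of nucleotide supply, Tk1, thymidine kinase, was at 2.67, 3.05, 3.68, 2.65 and 2.63 at 16 weeks, against 3.91 to 5.04 with a median of 4.72 at 12 weeks. The ages did not overlap, although 2 of the 12 week arrays were close to background. Tk1 fell by 1.64 ± 0.32 (adjusted p = 0.0121, limma). Rrm2, the small subunit of ribonucleotide reductase, was at 7.44 to 8.96 at 16 weeks, below its 9.21 to 10.1 at 12 weeks, and its difference of -1.34 did not pass (adjusted p = 0.0919, limma). Without probe sets ending in _x_at or _s_at, Rrm2 was read by a dimmer one that fell by 1.45 (adjusted p = 0.016, limma). Rrm1, the large subunit, differed by -0.80 (0.184, limma). Tyms, thymidylate synthase, stayed near background (3.51 to 3.82 in age means).

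Mki67, the gene of the proliferation marker Ki-67, was at 4.24, 5.15, 4.77, 5.07 and 5.68 at 16 weeks, against 6.40 to 9.70 with a median of 7.30 at 12 weeks. Each 16 week array lay below each 12 week array, and replicates 3 and 4 of 12 weeks stood above 9. Mki67 fell by 2.86 ± 0.68 (adjusted p = 0.03, limma), a 7.26-fold lower level at 16 weeks. At 20 weeks it was at 5.05, 5.32, 5.04, 5.36 and 4.60, with no array in the 12 week range.

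Cdc20, the activator of anaphase, was at 4.65, 6.37, 4.81, 5.07 and 6.32 at 16 weeks, against 6.92 to 8.98 with a median of 7.68 at 12 weeks. The ages did not overlap. Cdc20 fell by 2.25 ± 0.54 (adjusted p = 0.0301, limma). Its probe set has a name ending in _x_at, which can bind related transcripts. A second, dimmer Cdc20 probe set had means of 2.34 at 16 weeks and 3.75 at 12 weeks, and read in its place it did not pass (adjusted p = 0.117, limma).

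Cdk1, the mitotic kinase, was at 3.03, 3.65, 2.79, 2.82 and 3.01 at 16 weeks, against 3.19 to 6.15 with a median of 5.56 at 12 weeks. The ages overlapped, because replicate 6 of 12 weeks was near background. Cdk1 fell by 2.02 ± 0.53 to a near background mean (adjusted p = 0.0457, limma). It kept the call in 10 of 26 refits without 1 array, with a highest limma adjusted p of 0.119 without replicate 4 of 12 weeks. Cks2, a small partner protein of Cdk1, was at 4.90 to 6.95 at 16 weeks and at 7.18 to 8.29 at 12 weeks, with no overlap and a difference of -1.96 that did not pass (adjusted p = 0.117, limma). Ccnb2 and Ccna2, cyclins of mitosis and S phase, had near background means at every age.

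**Figure D3:**
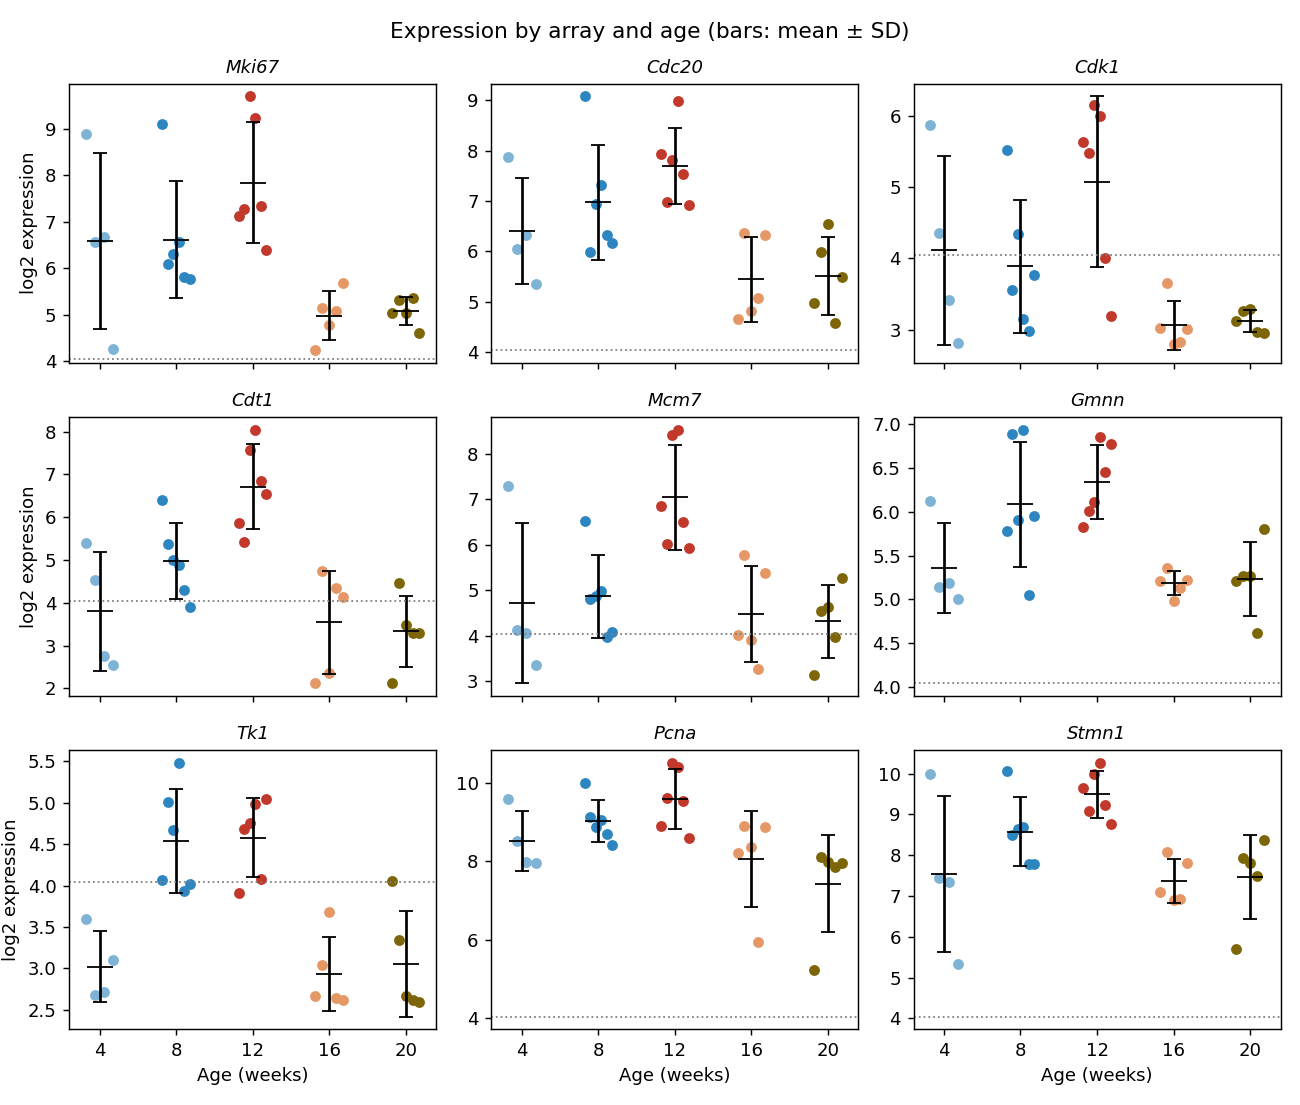
Log2 expression by array (points) at 4, 8, 12, 16 and 20 weeks for 9 genes, with the mean ± SD of each age (black) and the near background line at 4.04 (dotted). The 12 week arrays are the highest group in mean for all 9. For Cdc20, Gmnn and Tk1 at least 1 array of 8 weeks lies above every 12 week array. For each of the other genes at least 1 array of 4 or 8 weeks lies in the 12 week range.

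Stmn1, which encodes stathmin, a protein that destabilises microtubules, was at 7.10, 8.08, 6.91, 6.93 and 7.82 at 16 weeks, against 8.77 to 10.3 with a median of 9.43 at 12 weeks. The ages did not overlap, and the difference of -2.12 ± 0.59 just missed the threshold (adjusted p = 0.0519, limma). This probe set has a name ending in _s_at. The other Stmn1 probe set, also above the line, had means of 5.15 at 16 weeks and 5.49 at 12 weeks. It differed by -0.34 (adjusted p = 0.303, limma), a 1.27-fold lower level at 16 weeks against 4.35-fold on the probe set used. Birc5, or survivin, and Cdca8, or borealin, both part of the chromosomal passenger complex, differed by -1.97 (0.0708) and -2.00 (0.0643), also by limma and also not past the test. Aurkb, the kinase of that complex, was near background. The other 2 Cdca8 probe sets were near background, and with names ending in _x_at and _s_at left out, Cdca8 gave 0.09. Cdca3, a mitotic entry factor, differed by -1.28 (adjusted p = 0.0873 by limma).

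Of the 40 measured genes, 11 had positive differences, and none of them passed the test. Only 2 of these, Cenpa and Tpx2, had an unadjusted p under 0.05 by limma. Cenpa was at 4.49, 3.94, 4.89, 5.33 and 4.82 at 16 weeks, against 3.51 to 4.55 with a median of 3.78 at 12 weeks (0.83 ± 0.24, adjusted p = 0.0556 by limma). The 16 and 12 week arrays overlapped. Without probe sets ending in _x_at or _s_at, Cenpa was read by a dimmer probe set that gave -0.36. Tpx2, a spindle assembly factor, was at 6.46 to 7.01 at 16 weeks and at 4.34 to 6.82 at 12 weeks (1.10 ± 0.49, adjusted p = 0.207 by limma). Of its other 3 probe sets, 2 were near background and flat.

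Counted by arrays, 10 of the 37 tested genes had every 16 week array below every 12 week array (27%), against 3.66% of all genes tested. These were Cdc20, Cdt1, Cks2, Gmnn, Mcm2, Mcm7, Mki67, Rrm2, Stmn1 and Tk1. By role, 3 of 10 licensing and fork genes, 1 of 4 nucleotide genes and 3 of 22 tested mitosis genes fell by limma. Of all genes tested, 2.63% were called lower at 16 weeks. E2f1, near background at every age, did not pass.

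Most of the dim genes were flat. Of the 40, 22 had a mean at or below the line, 15 of these were never above it at any age, and 16 varied by less than 1 log2 unit in age means. They include the checkpoint proteins Bub1 and Bub1b, the motor proteins Kif11 and Kif20a, the topoisomerase Top2a and the spindle protein Nusap1. On the probe set used, Top2a differed by 0.12 at 16 against 12 weeks. A dimmer Top2a probe set gave 2.46 at 16 weeks and 4.38 at 12 weeks. Of the 51 probe sets that were not used, 8 had a mean above the line, and 7 of these were lower at 16 than at 12 weeks. The single high value of Top2a (6.69) and that of Bub1b (5.32) were both on replicate 1 of 20 weeks, the array with the narrowest spread.

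How many of the 7 calls stood depended on single arrays. The number of genes that fell was 2, Cdt1 and Tk1, without replicate 3, 4 or 5 of 12 weeks and without replicate 1, 3 or 4 of 16 weeks. In these refits 0.56% to 0.995% of all genes were called in either direction. It was 4 without replicate 5 of 16 weeks (1.43% of all genes), 10 without replicate 1 of 8 weeks (3.51%) and 12 without replicate 1 of 20 weeks (7.07%). In both of the last cases Cenpa passed as higher at 16 weeks. The share called among all genes thus also moved with single arrays. Over all genes tested, the count was 69 (0.56%) without replicate 4 of 12 weeks and 871 (7.07%) without replicate 1 of 20 weeks. With all arrays it was 369 (2.98%). Cdt1 and Tk1 kept the call in all 26 such refits and in the other 14 settings tried, with a highest limma adjusted p of 0.0435 for Cdt1 and 0.04 for Tk1. The median difference of the 40 genes was -0.50 without replicate 4 of 12 weeks.

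The cell type markers measured beside these genes moved as follows. No tested gene of the 12 marker lists passed between 16 and 12 weeks, against 2.98% of all genes tested. Only 1 of 9 B cell and 4 of 8 T cell markers passed the filter and were tested. The same held for 2 of 9 neutrophil and red cell precursor markers and 2 of 5 endothelial markers. No list had more than 8 tested genes, so for none of them can the lack of calls show that the content of such cells was level. This holds most for the lists just named. Of 9 B cell markers, Ms4a1 alone had an age mean above the line. The B cell marker mean was 2.60 to 2.77 at 16 weeks and 2.54 to 4.08 at 12 weeks, where 4.08 is replicate 4. The T cell mean was 2.90 to 2.99 at 16 weeks and 2.77 to 3.33 at 12 weeks, and the plasma cell and immunoglobulin mean was 4.93 to 6.59 at 16 weeks and 6.27 to 6.63 at 12 weeks. The macrophage mean was 6.34 to 7.54 at 16 weeks and 6.69 to 7.48 at 12 weeks. The fibroblast mean was 5.88 to 6.57 at 16 weeks and 6.55 to 7.48 at 12 weeks, and the salivary gland mean was 5.42 to 9.79 at 16 weeks and 7.84 to 11.2 at 12 weeks. The part of fibroblast or salivary gland content in the fall of the cell cycle genes was not tested.

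On replicate 4 of 12 weeks, 5 of 9 B cell markers stood above all other arrays, among them Ms4a1, or CD20, at 7.02 and Cd79a, a part of the B cell receptor, at 6.67. So did 3 of 8 T cell markers, 1 of 8 plasma cell markers and 0 of 7 germinal centre markers. This array also had the highest value of its age in 12 of the 18 genes above the line. This array was then left out together with replicate 4 of 16 weeks and replicate 1 of 20 weeks, chosen after seeing the data. In that setting 3 genes fell between 16 and 12 weeks, against 2.02% of all genes in either direction. On replicate 3 of 12 weeks, where the B cell marker mean was 2.62, Mki67 was at 9.70 and Pcna at 10.5.

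Within each age the genes above the line tended to be high on the same array. Their mean per array was 6.84, 5.51, 5.44 and 4.60 at 4 weeks, and 7.14, 6.17, 6.04, 6.12, 5.51 and 5.57 at 8 weeks. It was 6.80, 6.34, 7.23, 7.66, 6.82 and 6.34 at 12 weeks, 5.30, 6.07, 5.24, 5.11 and 5.93 at 16 weeks, and 4.46, 6.00, 5.75, 5.31 and 5.45 at 20 weeks. All 12 week arrays lay above all 16 and 20 week arrays, while replicate 1 of 4 weeks and replicate 1 of 8 weeks lay in the 12 week range. The SD of all log2 values averaged 2.154 at 12 weeks, 1.975 at 16 weeks and 1.87 at 20 weeks. It was 2.273 on replicate 1 of 8 weeks, the widest of all arrays, 2.267 on replicate 4 of 12 weeks and 2.045 on replicate 1 of 4 weeks. The part of array spread in the order of this mean was not tested.

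Replicate 1 of 4 weeks was the highest of its age in 15 of the 18 genes, and replicate 1 of 8 weeks in 14 of 18. Mki67 shows the spread: it was at 9.10, 6.09, 6.30, 6.56, 5.81 and 5.76 at 8 weeks, and at 8.89, 6.55, 6.66 and 4.25 at 4 weeks. The B cell marker mean was 2.56 on replicate 1 of 8 weeks and 2.63 on replicate 1 of 4 weeks, within the range of the other arrays. Replicate 1 of 4 weeks had the highest fibroblast mean of all arrays (8.54), against 6.81 to 7.51 on the others of its age.

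**Figure D4:**
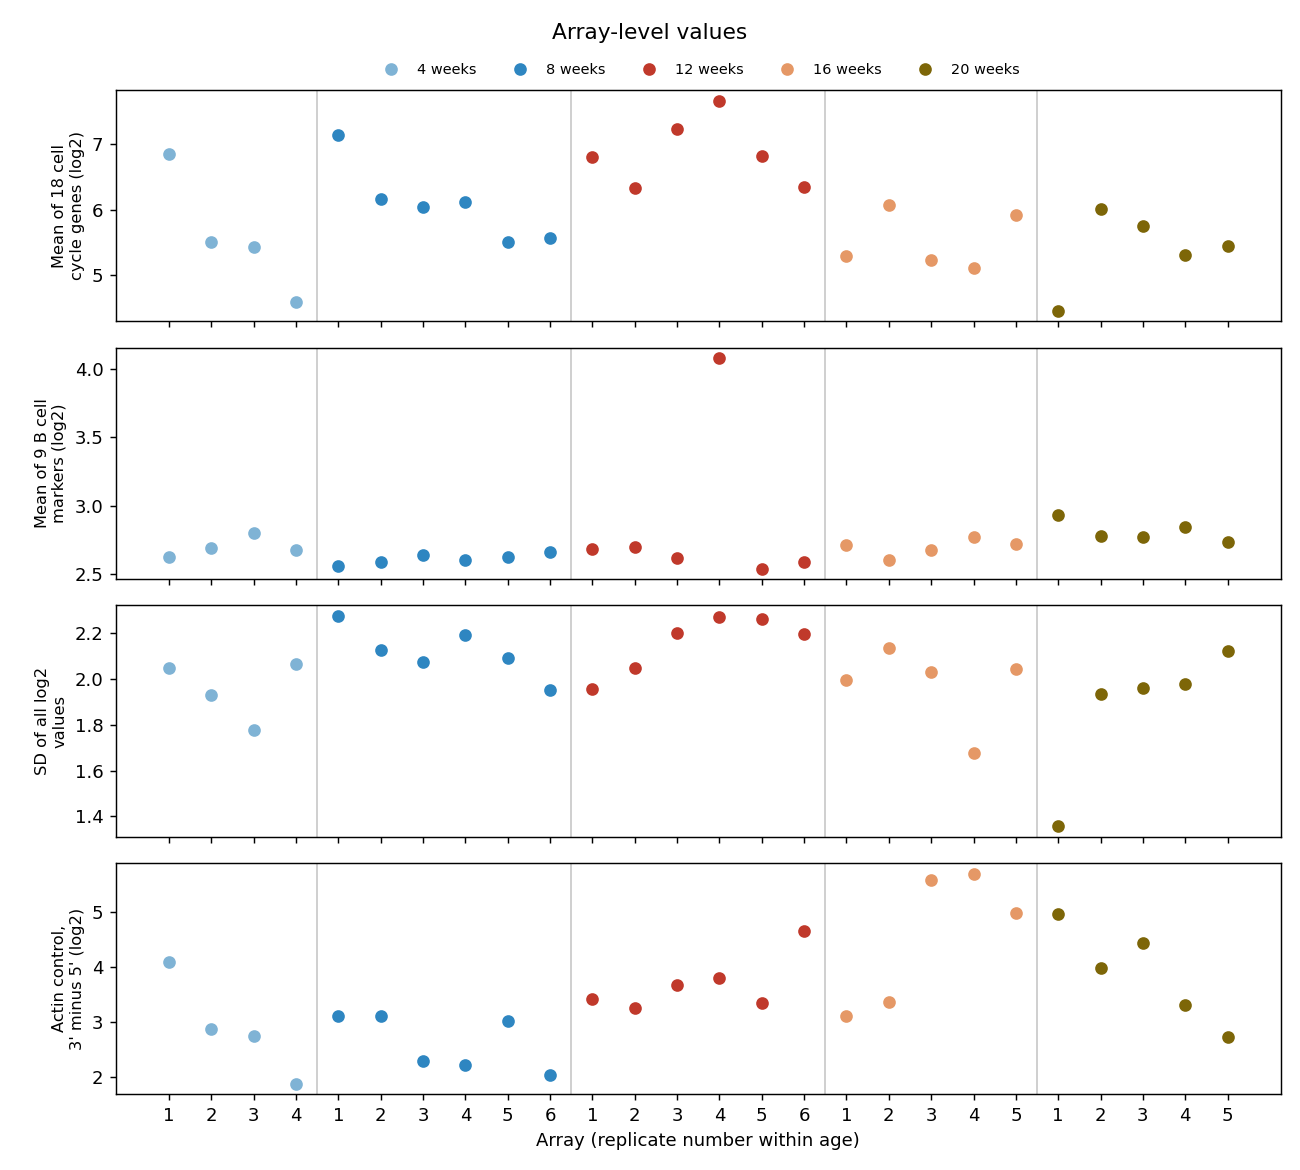
Array-level values by age and replicate: the mean log2 of the 18 cell cycle genes above the line, the mean log2 of 9 B cell markers, the SD of all log2 values, and the actin 3′ minus 5′ difference. The top panel is highest at 12 weeks, where replicate 4 is at 7.66 and also stands alone in the B cell panel at 4.08.

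Between 8 and 4 weeks, 1 of the 37 genes passed (2.7%), against 1.36% of all genes tested. Tk1 was at 4.07, 5.01, 4.67, 5.48, 3.94 and 4.02 at 8 weeks, against 3.60, 2.68, 2.72 and 3.10 at 4 weeks. Every 8 week array lay above every 4 week array. Tk1 rose by 1.51 ± 0.34 (adjusted p = 0.0247, limma). The call was lost without replicate 2, 3 or 4 of 4 weeks and without replicate 2, 3 or 4 of 8 weeks, with a highest limma adjusted p of 0.111. It was also lost when only the arrays of these ages were fitted. Without replicate 1 of 20 weeks, 2 genes passed, against 3.39% of all genes. The median difference of the 40 genes was -0.008, against -0.057 over all genes.

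Between 12 and 8 weeks no gene of the list passed by limma, against 0.0162% of all genes tested, 2 genes in number, and 5 genes had an unadjusted p under 0.05 (13.5%), all higher at 12 weeks, against 4.96% of all genes tested. The differences of the 40 genes were positive in 34, with a median of 0.184 against -0.009 over all genes. All 10 licensing and fork genes and all 4 nucleotide genes had positive differences. Mcm7 had the highest of them, at 5.93 to 8.53 at 12 weeks and at 3.98 to 6.52 at 8 weeks (2.17 ± 0.63, adjusted p = 0.467 by limma). Cdt1 differed by 1.74 ± 0.59 (0.656) and Mcm5 by 1.24 ± 0.46 (0.764), also by limma. In each the arrays of the ages overlapped, with replicate 1 of 8 weeks the highest of its age. Tk1, by contrast, was level at 4.58 ± 0.47 (SD, n = 6) at 12 weeks and 4.53 ± 0.63 (n = 6) at 8 weeks.

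Between 20 and 16 weeks no gene passed by limma, against 0.0162% of all genes tested. At an unadjusted p under 0.05 there was 1 of the 37 genes (2.7%), against 8.14% of all. The median difference was 0.053, against 0.031 over all genes. Mki67 averaged 5.07 ± 0.30 at 20 weeks and 4.98 ± 0.53 at 16 weeks (SD, n = 5 each), which is close to level. Cdk1 averaged 3.12 ± 0.16 at 20 weeks and 3.06 ± 0.35 at 16 weeks, and Gmnn 5.23 ± 0.42 at 20 weeks and 5.18 ± 0.14 at 16 weeks. Pcna had a wider spread, 7.43 ± 1.23 at 20 weeks and 8.05 ± 1.22 at 16 weeks, with replicate 1 of 20 weeks at 5.23.

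Over the whole course, 20 against 4 weeks, no gene of the list passed and none had an unadjusted p under 0.05 by limma, while 2.21% of all genes tested were called and 14.6% had an unadjusted p under 0.05. The median difference was -0.069, against 0.007 over all genes. Mki67 had the largest negative difference of those named here, -1.52 ± 0.76 (adjusted p = 0.356, limma), and its 4 week arrays spanned 4.25 to 8.89. Tk1 averaged 3.06 ± 0.64 (n = 5) at 20 weeks and 3.02 ± 0.43 (n = 4) at 4 weeks. The level of Tk1 was thus at or above 3.91 on every array of 8 and 12 weeks and at or below 4.05 on every array of 4, 16 and 20 weeks.

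Other genes of the same pathways, in lists that were likewise chosen with earlier results known, were tested by the same F test, which called 1 of 32 other mitosis genes, 2 of 36 other replication and repair genes, 2 of 24 G1 cyclins with their kinases, E2F and RB factors, and 4 of 22 inhibitors and p53 targets, against 14.9% of all genes. Whether they differ from the 41 genes in this was not tested. Between 16 and 12 weeks 3 of these 114 genes fell (2.63%) and none rose, against 2.63% lower among all genes tested, so this count is level with the background. The 3 are described as single genes. Ccnd3, a D-type cyclin of G1, was at 6.43, 6.73, 6.02, 6.80 and 6.43 at 16 weeks, against 7.12 to 9.11 at 12 weeks. It fell by 1.50 ± 0.28 (adjusted p = 0.0121, limma), with no overlap. Cdk4, the kinase that D-type cyclins activate, was at 6.38, 6.34, 5.76, 6.36 and 6.10 at 16 weeks, against 6.80 to 7.94 at 12 weeks, again without overlap. Cdk4 fell by 1.14 ± 0.23 (adjusted p = 0.013, limma).

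Dut, the enzyme that keeps dUTP out of DNA, was at 4.13, 4.70, 4.15, 3.23 and 4.65 at 16 weeks, against 4.15 to 7.38 at 12 weeks. The ages overlapped through replicate 1 of 12 weeks, and Dut fell by 1.95 ± 0.47 (adjusted p = 0.0301, limma). These 3 genes had close means at 12 and 8 weeks. Ccnd3 averaged 7.98 at 12 weeks and 7.92 at 8 weeks, Cdk4 7.33 at 12 weeks and 7.27 at 8 weeks, and Dut 6.12 at 12 weeks and 6.06 at 8 weeks.

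The other genes of these lists that changed over the ages were not called between 16 and 12 weeks. Gins4, part of the replicative helicase with the Mcm proteins, averaged 3.03, 3.99, 3.91, 2.97 and 2.76 at 4, 8, 12, 16 and 20 weeks. Pttg1, or securin, which restrains the cohesin-cutting enzyme separase until anaphase, averaged 11.8, 11.3, 11.1, 10.6 and 10.8. Cdkn1b, which encodes the cyclin-dependent kinase inhibitor p27, averaged 7.75, 8.04, 8.38, 9.31 and 9.22, with higher means at both later ages. On its arrays, replicate 1 of 20 weeks was at 7.28 while the other 4 arrays of 20 weeks were at 9.51 to 9.92. Gadd45g, Mdm2 and Btg2, inducible by p53 or stress, had their lowest means at 20 weeks (3.41, 4.80 and 4.70). Of these, Gadd45g passed the test between 20 and 4 weeks, lower at 20 weeks.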

How the data were processed

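The authors deposited 1 table of log2 expression values for 45101 probe sets on 26 Affymetrix arrays. Per the submitters' processing notes, RMA and GCRMA were used, methods that correct background, normalise and summarise probes. The notes give neither version nor role, so it is unknown which of them made the deposited log2 values. The values were used as deposited, and all array columns were mapped to samples by their labels. Gene names came from the platform's annotation, in which 34958 probe sets named 1 gene, 932 several and 9211 were not listed. A gene was tested if its probe set lay above the array median on at least 4 arrays, which left 12377 of 18194 genes.

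Limma 3.58.1 in R 4.3.3 was fitted to all 26 arrays with a mean per age and no covariate (lmFit, eBayes), with an F test over ages and contrasts of successive ages and of 20 with 4 weeks. Tests were two-sided, adjusted by Benjamini-Hochberg over all genes tested. The fit was tested on simulated data, while the filter and the probe set rule were not. Depth does not apply to arrays, and their number limits the precision. The members, pathway lists, marker lists and tests were chosen with earlier results of these data known. Any of the 41 genes may be named, and of the pathway lists up to 5 genes with the smallest F p among those called. Genes of the marker lists named beside a result were chosen after their values were seen.

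Alternatives were quantile normalization, centring on the median, array weights, no filter or one at the 75th percentile, averaging all probe sets per gene, dropping those whose names end in _x_at or _s_at, robust eBayes with a trend, a replicate block, only the arrays compared, the actin difference as a covariate, and leaving out arrays singly or together. Array spread as a covariate, and leaving out 3 arrays together, were added after the data were seen. Promoter windows came from RefSeq (GRCm38.p6), and 7 members had none in the table used.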

Additional observations from a re-analysis of the deposited data

Results flagged for a closer look

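Single arrays far from the others of their age were looked for in the genes above the near background line, in their mean per array and in the B cell marker mean. The other marker means were not checked in this way. Of 100 such sets of arrays, 12 held one, and chance gives about 1 in 20. Replicate 1 of 8 weeks was high for Mki67 (9.10, next 6.56), Mcm2 (6.99, next 6.24) and Mcm5 (6.71, next 4.63). Replicate 1 of 4 weeks was high for Gmnn (6.12, next 5.18) and Rrm1 (5.57, next 4.16). Pcna was low on replicate 4 of 16 weeks (5.94, next 8.21) and on replicate 1 of 20 weeks (5.23, next 7.86), the pair of arrays with the narrowest spread. Mcm2 was low on replicate 4 of 16 weeks (5.14, next 5.67) and on replicate 2 of 12 weeks (6.02, next 6.55). At 20 weeks, Mcm5 was high on replicate 2 (5.71, next 4.76) and Rrm1 on replicate 3 (5.0, next 4.32). The B cell marker mean was high on replicate 4 of 12 weeks (4.08, next 2.70). The causes were not tested.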

How the results depend on the processing

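The sign of the median difference between 16 and 12 weeks was negative in every setting tried. The number of genes called depended more on the processing. With array weights, whose estimation did not converge cleanly, 28 of 37 genes changed over the 5 ages, against 65.9% of all genes. The counts of the 37 were 14 between 8 and 4 weeks (36.8% of all genes) and 1 between 12 and 8 (1.15%). They were 18 between 16 and 12 (22.6%) and 6 between 20 and 4 (28.1%). Over the 5 ages the count was 6 of 37 with quantile normalization, against 17% of all genes, so no higher than the background. It was 7 without a filter (8.56% of all genes) and 7 with the actin difference as a covariate (8.89%). The main fit gave 12 (14.9%). Between 16 and 12 weeks it was 4 without a filter (1.1% of all genes) and 11 with the 75th percentile filter (6.23%). With the actin covariate it was 4 (0.937%), and the main fit gave 7 (2.98%). Between 8 and 4 weeks it was 0 with only those ages fitted (1.57% of all genes). Without replicate 4 of 16 weeks and replicate 1 of 20 weeks it was 2 (4.93%). Between 20 and 4 weeks it was 1 (Mcm2) without _x_at and _s_at probe sets, against 2.61% of all genes. In a setting chosen after seeing the data, array spread as a covariate left 2 genes over the 5 ages, against 15.3% of all genes. Another such setting left out replicate 4 of 12 weeks, replicate 4 of 16 weeks and replicate 1 of 20 weeks together. It gave 6 genes over ages (18.2% of all genes), 3 between 16 and 12 weeks (2.02%) and 2 between 8 and 4 (4.75%).

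Leaving out 1 array at a time gave 6 to 16 genes over the 5 ages, against 11.2% to 23.9% of all genes. It gave 0 to 2 between 8 and 4 weeks (0.485% to 3.39%) and 2 to 13 between 16 and 12 (0.56% to 7.18%). In the other comparisons it gave 0. The median difference was -0.09 to 0.39 for 8 against 4 weeks, 0.11 to 0.39 for 12 against 8, -0.90 to -0.50 for 16 against 12, 0.02 to 0.11 for 20 against 16, and -0.22 to 0.06 for 20 against 4. Between 16 and 12 weeks 3 differences turned sign: Mcm3 with the mean of probe sets (-0.53), and Cenpa (-0.36) and Cdca8 (0.089) without _x_at and _s_at probe sets, which changes the probe set read.

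Replicate numbers did not pair the samples: the correlation of deviations from the age means was -0.48 to 0.49 over 47 pairs with the same number (median -0.08), with 14 over 0.1. With a replicate block the counts were 8 over the 5 ages, 5 between 16 and 12 weeks and 1 between 8 and 4. The all-gene shares were 10.6%, 1.84% and 0.751%. The median difference between 16 and 12 weeks was then -0.89. Signals near background limit what can be said of 22 of the 40 genes.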
